A study of Mus musculus with 10 samples.

Results

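Transcripts of 9 genes of the classical and terminal complement pathway were examined in bulk RNA from 10 mouse melanomas. The genes are C1ra, C1s1, C2, C3, C4b, C6, C7, Cfb and Serping1, and they were taken by symbol from the 47643 genes of the deposited table, where each symbol matched 1 Ensembl gene. The set was proposed because some of its genes differed between the genotypes in these tumours. Differences of the 9 genes between the genotypes are therefore given as a description, with no test of their own.

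The tumours fall into 2 groups of 5. Both groups carried 1 copy of the Tyr::CreERT2 transgene, in which a tamoxifen-activated Cre recombinase is driven by the promoter of tyrosinase, a melanocyte gene. Both also carried the oncogenic Braf allele V600E on 1 chromosome, and tumours were started with 5 mM 4-hydroxytamoxifen on the back skin. The Fes KO group was Fes-/- and the Fes WT group Fes+/+. Fes encodes a cytoplasmic tyrosine kinase, and the label Fes-/- does not restrict its loss to melanocytes, so other cells of the tumour belong to the same genotype. The labels give no age. No label states whether each tumour is from a different animal, and p-values thus measure only the spread between these samples, which may be technical.

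Complement is a cascade of plasma and tissue proteins that marks surfaces for uptake and can perforate membranes. In the classical pathway the C1 complex, built of C1q and the proteases C1r and C1s, cleaves C4 and C2, and their fragments form an enzyme that cleaves C3. Factor B takes the place of C2 in the alternative pathway, and C6 and C7 belong to the membrane attack complex that forms after C5 is cleaved. C1 inhibitor, the product of Serping1, blocks C1r and C1s. The liver secretes most of the plasma proteins, but fibroblasts, macrophages and endothelial cells also transcribe complement genes, several of them in response to interferon-gamma and inflammatory cytokines.

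Total counts were 13226783 to 16599120 per tumour. Fes, the targeted gene, was at 29.2 to 57.5 CPM (counts scaled by the effective library size) in Fes KO and at 72.4 to 102.1 CPM in Fes WT, so every tumour lay on the side its label gives, although Fes reads remained in Fes KO. Of the melanocyte markers, Sox10 was at 392 to 970 CPM in all tumours, while the pigment gene Tyr reached 51.1 CPM in Fes KO 2 and ran from 0.457 to 6.66 CPM elsewhere. Fes KO 2 stood apart in keratinocyte transcripts, with Krt5 at 1596 CPM, and Fes WT 3 in skeletal muscle transcripts, with Acta1 at 3931 CPM. Xist, the RNA of the inactive X chromosome, was abundant in 3 tumours (Fes WT 5, Fes KO 1 and Fes KO 2, with 670.1 to 719.8 CPM), and 0.678 CPM was its highest level among the remaining 7. In bulk RNA, fewer cells of a type and less RNA per cell cannot be told apart.

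All 9 genes had a lower mean in Fes KO than in Fes WT, with log2 fold changes (Fes KO minus Fes WT) between -0.62 and -5.57 and a median of -1.73. Over all 14816 tested genes 7056 lay below 0 and the median was 0.01. In 6 of the 9 genes, C1ra, C1s1, C2, C6, C7 and Serping1, every Fes KO tumour lay below every Fes WT tumour, a pattern seen in 1.11% of all tested genes, while 0.783% had every Fes KO tumour above every Fes WT tumour. C3, C4b and Cfb overlapped between the groups.

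In the fit over the whole table, C1ra, C1s1 and C7 passed the threshold of 0.05 in the edgeR quasi-likelihood test with Benjamini-Hochberg adjustment, as did 0.128% of all tested genes in this direction. Since this contrast chose the genes, nothing is read from that count. It fell to 0 of 9 without Fes KO 1, without Fes KO 3, without Fes KO 5 and without Fes WT 2, and to 1 (C7) without Fes WT 1. Genes called lower over the whole table fell as well in these fits, from 19 to 6, 6, 8, 7 and 10 in that order. Without Fes KO 4 the count of the 9 rose to 6, when C2, Cfb and Serping1 were added. All genes called lower then rose to 29. DESeq2 called C1ra, C1s1, C2, C6, C7 and Serping1, where 1.19% of the genes it tested were called lower. Limma-voom with quality weights called C1ra, C1s1, C2 and Serping1 and not C7, where 0.567% of all genes were called lower. Fes, the targeted gene, did not itself pass in edgeR (log2 fold change -1.06, SE 0.19, adjusted p = 0.0846).

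**Figure D1:**
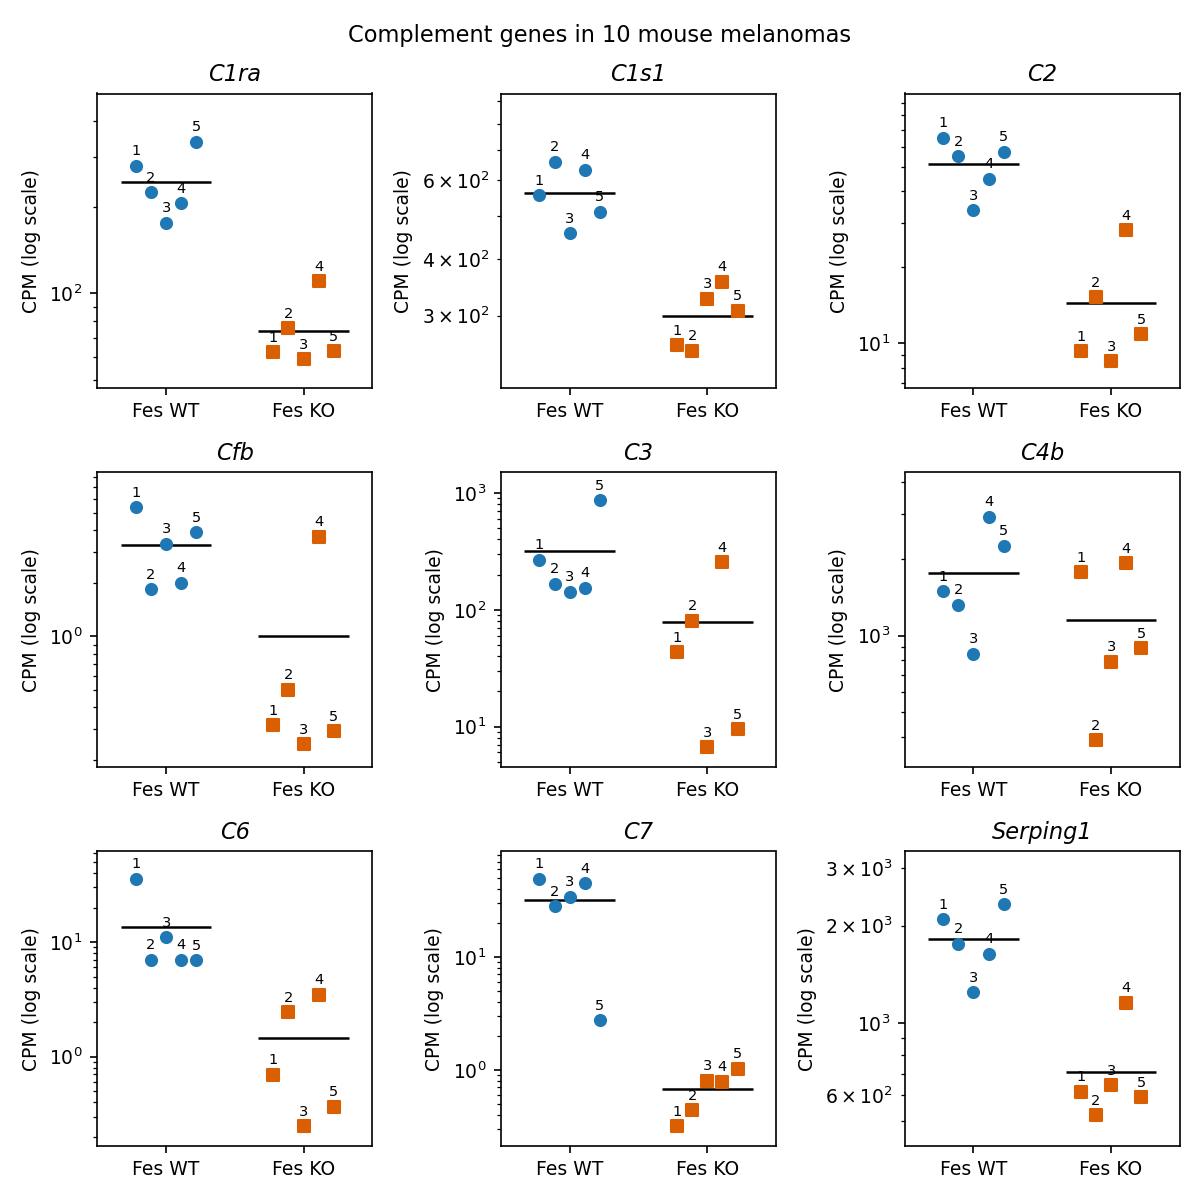
CPM of the 9 complement genes in each tumour on a log axis, with Fes WT as blue circles and Fes KO as orange squares, the replicate number above each point and a black line at the group mean. Only C3, C4b and Cfb have a Fes KO point at or above the lowest Fes WT point, and Fes KO 4 is the highest Fes KO tumour in 8 of the 9 genes.

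C1ra and C1s1 encode the proteases of the C1 complex that start the classical cascade. In Fes WT 1 to 5, C1ra was at 279, 225, 176, 206 and 338 CPM, and in Fes KO 1 to 5 at 62.4, 75.7, 58.9, 110.1 and 62.8 CPM. The lowest Fes WT tumour was thus 1.60 times the highest Fes KO tumour, and the spread within each group was small, at 1.92 and 1.87 times from lowest to highest. The means were 245 ± 64.2 and 74.0 ± 21.2 CPM (SD, n = 5 each), with a log2 fold change of -1.73 (SE 0.22).

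C1s1 was at 556, 659, 457, 633 and 510.1 CPM in Fes WT 1 to 5 and at 258, 251, 327, 357 and 308 CPM in Fes KO 1 to 5. It had the narrowest ranges of the 9 genes, 1.44 times in Fes WT and 1.42 times in Fes KO, and the groups did not overlap. Its log2 fold change was -0.91 (SE 0.14). The C1ra value was further from 0 than that of C1s1. Per kilobase of exon, the ratio of C1ra to C1s1 was 0.342 to 0.696 in Fes WT and 0.189 to 0.324 in Fes KO, and these ranges did not overlap either.

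The 2 genes are neighbours on chromosome 6 in GRCm38, C1ra at 124512405 to 124523443 on the plus strand and C1s1 at 124530345 to 124542359 on the minus strand. Their ends face each other across 6901 bases with no coding gene between. Each has a near-identical copy in the same cluster, C1rb with 97.9% identity to C1ra over 2431 aligned transcript bases, and C1s2 with 95.9% identity to C1s1 over 2643 bases, so reads can be split between copies.

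The copies had a pattern of their own. C1rb was at 8.16 CPM in Fes WT 1 and 12.5 CPM in Fes WT 5, and at 0 to 0.262 CPM in the other 8 tumours. C1s2 was high in the same tumours, at 28.1 and 30.0 CPM, and 0.671 CPM was its highest level in the others. In Fes WT 1 and Fes WT 5 these reads were 2.85% and 3.56% of the C1ra and C1rb sum, and 4.81% and 5.55% of the C1s1 and C1s2 sum. The sum of C1ra and C1rb was 176 to 351 CPM in Fes WT and 58.9 to 110.4 CPM in Fes KO. That of C1s1 and C1s2 was 458 to 660.1 against 251 to 357 CPM, so the groups remained apart in both sums of counted reads. The counting settings are not stated, and any reads left out because they match both copies would be missing from these sums. Fes WT 5 expressed Xist and Fes WT 1 did not.

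**Figure D2:**
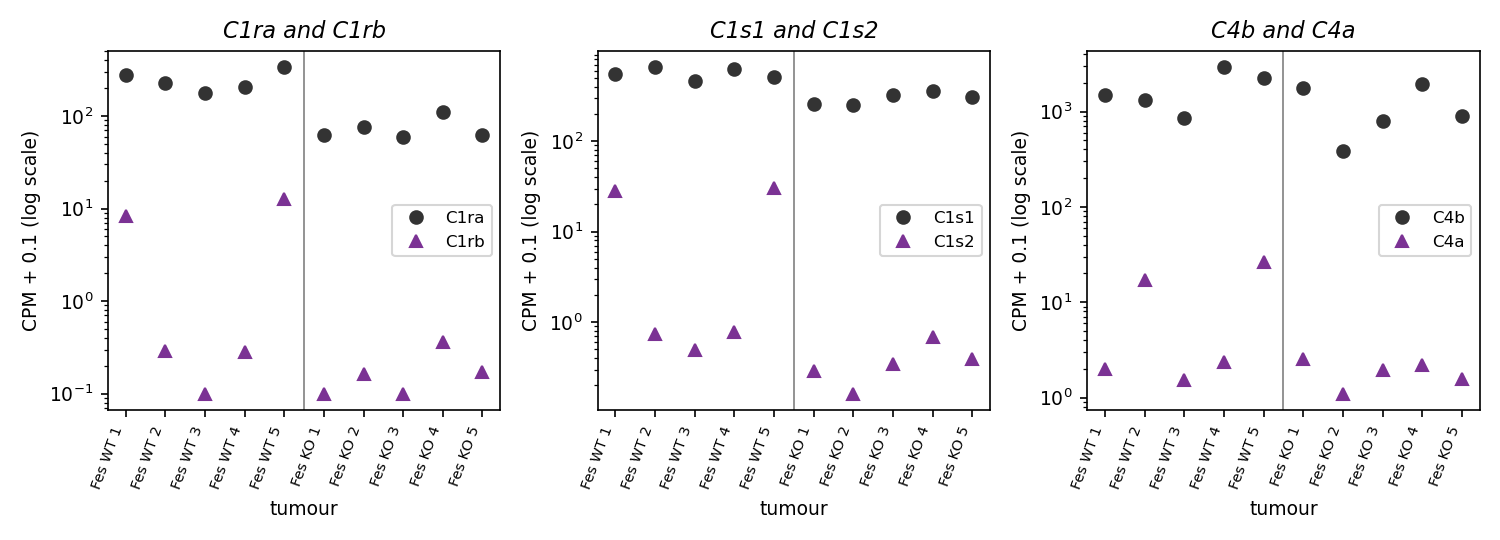
CPM plus 0.1 on a log axis in each tumour for C1ra with C1rb, C1s1 with C1s2 and C4b with C4a, with black circles for the first gene of a pair, purple triangles for its near-identical copy and a grey line between the genotypes. C1rb and C1s2 stand high in Fes WT 1 and Fes WT 5, and C4a in Fes WT 2 and Fes WT 5.

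Serping1 encodes C1 inhibitor, the serpin that inactivates C1r and C1s. It was at 2096, 1760.5, 1248, 1637 and 2323 CPM in Fes WT 1 to 5 and at 615, 521, 645, 1157 and 592 CPM in Fes KO 1 to 5. Fes KO 4 came close to Fes WT 3, the lowest Fes WT tumour being only 1.08 times the highest Fes KO tumour. Serping1 did not pass the threshold in the main fit. It passed in 1 of 10 fits that left out 1 tumour, the one without Fes KO 4, its highest Fes KO tumour. As this contrast chose the gene, nothing is read from that pass. The means were 1813 ± 416 and 706 ± 256 CPM, and the log2 fold change was -1.36 (SE 0.25). Serping1 lies on chromosome 2 at 84765387 to 84775444 on the minus strand, away from the C1r and C1s cluster.

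Protease and inhibitor were also compared within each tumour. The ratio of C1ra to Serping1 per kilobase of exon was between 0.0981 and 0.114 in Fes WT and between 0.0712 and 0.113 in Fes KO. The ratio of C1s1 to Serping1 was 0.163 to 0.287 in Fes WT and 0.229 to 0.387 in Fes KO. Each ratio overlapped between the genotypes through 1 tumour. For C1ra to Serping1 this was Fes KO 2, at 0.113, while the other 4 Fes KO tumours, at 0.0712 to 0.0828, lay below all of Fes WT. For C1s1 to Serping1 it was Fes KO 4, at 0.229, while the other 4, at 0.312 to 0.387, lay above all of Fes WT.

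C2 and Cfb encode the homologous proteases of the C3-cleaving enzymes, C2 in the classical and factor B in the alternative pathway. C2 was at 65.4, 55.1, 33.7, 44.9 and 57.5 CPM in Fes WT 1 to 5 and at 9.33, 15.2, 8.50, 28.1 and 10.9 CPM in Fes KO 1 to 5. The groups did not overlap, though Fes KO 4 came near to Fes WT 3, and the log2 fold change was -1.83 (SE 0.34). Cfb was far lower, at 1.85 to 5.36 CPM in Fes WT and at 0.247 to 0.499 CPM in 4 Fes KO tumours, which is 4 to 8 counts. The remaining tumour, Fes KO 4, had 56 counts and 3.66 CPM, inside the Fes WT range, so the log2 fold change of -1.71 (SE 0.76) became -3.25 without Fes KO 4.

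The 2 genes lie 85 bases apart on the minus strand of chromosome 17, Cfb at 34856374 to 34862518 and C2 at 34862604 to 34898265. A predicted read-through gene, Gm20547, shares exons with both and has 0 counts in every tumour, and Zbtb12 overlaps C2 exons on the other strand. The strand and overlap settings of the counting are not stated in the labels, so the counts of C2 and Cfb are less certain than those of genes that stand alone.

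C3 and C4b encode the large components that bind covalently to target surfaces through a thioester. C3 was at 267, 167, 143, 155 and 870.1 CPM in Fes WT 1 to 5 and at 43.6, 80.6, 6.66, 255 and 9.47 CPM in Fes KO 1 to 5. It spread more than any of the other 8 genes in Fes KO, 38.4 times from lowest to highest, and Fes KO 4 lay within the Fes WT range. Its log2 fold change was -2.02 (SE 0.97), which became -3.19 without Fes KO 4, -1.21 without Fes WT 5 and -0.99 without the 3 Xist-expressing tumours.

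C4b was at 1497, 1320.1, 849, 2924 and 2251 CPM in Fes WT 1 to 5 and at 1778, 389, 789, 1921 and 891 CPM in Fes KO 1 to 5. The groups overlapped widely, and its log2 fold change of -0.62 (SE 0.46) was the one nearest to 0 in the set. It became -0.36 without Fes WT 4. C4b lies on chromosome 17 at 34728380 to 34743882 on the minus strand, and C3 on the same chromosome at 57203970 to 57228136 on the minus strand. The copy C4a, which the annotation lists as a processed transcript, shares 95.9% identity over 5378 bases and was at 16.9 CPM in Fes WT 2 and 26.4 CPM in Fes WT 5, against 0.998 to 2.46 CPM in the other 8 tumours.

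C6 and C7 encode successive components of the membrane attack complex. C7 was at 49.5, 28.1, 34.3, 45.2 and 2.74 CPM in Fes WT 1 to 5 and at 0.315, 0.437, 0.801, 0.785 and 1.02 CPM in Fes KO 1 to 5. Fes WT 5 had 36 counts, against at least 441 in each other Fes WT tumour, and still lay above the highest Fes KO tumour by 2.69 times. The Fes KO values rest on 5 to 14 counts each. The means of 32.0 ± 18.4 and 0.672 ± 0.289 CPM differed 47.6 times, and the log2 fold change was -5.57 (SE 0.72), the lowest of the set.

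C6 was at 35.7, 7.00, 11.1, 7.02 and 6.94 CPM in Fes WT 1 to 5 and at 0.694, 2.43, 0.247, 3.47 and 0.364 CPM in Fes KO 1 to 5. Fes WT 1 was high, and the lowest Fes WT tumour was 2.00 times the highest Fes KO tumour. The log2 fold change was -3.22 (SE 0.81), and -2.46 without Fes WT 1. C6 and C7 did not vary alike within Fes WT, where the ratio of C7 to C6 per kilobase ran from 0.526 in Fes WT 5 to 8.55 in Fes WT 4. They lie on chromosome 15, C6 at 4727175 to 4814967 on the plus strand and C7 at 4988762 to 5063740 on the minus strand, with the coding gene Mroh2b between them.

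C6, C7 and Cfb passed the filter on low counts through the Fes WT group, since all 5 Fes WT tumours but only 3, 3 and 1 of the Fes KO tumours were above its level of 0.644 CPM. A difference was thus built into their being tested. The other 6 genes were above it in all 10 tumours.

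Promoter sequence was available from RefSeq for C1ra, C1s1, C3, C6 and C7, on the build GRCm38.p6. The 250 bases before the start site were searched on both strands for 4 motifs of factors that act in interferon and inflammatory responses: the gamma-interferon activation site TTCNNNGAA, the interferon-stimulated response element, the C/EBP site TTGCNNAA and the NF-kB site. The windows of C7, C1s1 and C3 are printed from 5′ to 3′ because each held a match, which is in capitals. They are chr15:5063774-5064023, chr6:124542360-124542609 and chr17:57228137-57228386, all on the minus strand.
C7: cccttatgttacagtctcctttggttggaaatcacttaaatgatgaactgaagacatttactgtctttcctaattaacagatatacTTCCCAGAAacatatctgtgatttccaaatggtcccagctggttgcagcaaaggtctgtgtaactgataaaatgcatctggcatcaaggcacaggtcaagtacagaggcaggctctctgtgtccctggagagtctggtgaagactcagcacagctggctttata
C1s1: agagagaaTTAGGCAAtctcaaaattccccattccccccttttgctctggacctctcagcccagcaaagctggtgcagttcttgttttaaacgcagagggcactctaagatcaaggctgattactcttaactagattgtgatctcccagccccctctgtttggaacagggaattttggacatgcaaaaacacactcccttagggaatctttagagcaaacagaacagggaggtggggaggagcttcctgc
C3: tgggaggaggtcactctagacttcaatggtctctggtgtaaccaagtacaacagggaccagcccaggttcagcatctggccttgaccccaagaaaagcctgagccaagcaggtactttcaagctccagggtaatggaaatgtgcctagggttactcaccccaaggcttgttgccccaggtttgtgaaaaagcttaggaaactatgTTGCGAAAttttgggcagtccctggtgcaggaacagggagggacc

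The C7 window holds 1 gamma-interferon activation site, from 164 to 156 bases before the start, and 7.02% of all 32851 promoter windows of this length hold at least 1. C1s1 has a C/EBP match from 242 to 235 bases before the start, and C3 one from 45 to 38 bases before it, where 9.56% of all windows have a match. A second annotated start of C1s1 gave a window with no match. The C1ra window (chr6:124512371-124512620) lies mostly inside the gene as positioned above, from 124512405, since RefSeq places the start further downstream. The C6 window (chr15:4726960-4727209) likewise reaches past the gene start at 4727175. None of the 4 motifs was found in the C1ra and C6 windows, and the response element (2.98% of all windows) and the NF-kB site (0.356%) were found in none of the 5 genes. These are matches of letters and were not tested as binding sites.

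Levels of different genes were compared per kilobase of exon. In Fes WT the order from high to low was Serping1 (780 ± 179 CPM per kb), C4b (310.5 ± 144), C1s1 (180 ± 26.9), C1ra (82.1 ± 21.5), C3 (62.3 ± 60.5), C2 (13.2 ± 3.16), C7 (11.9 ± 6.88), C6 (3.81 ± 3.51) and Cfb (1.16 ± 0.511). The ranges over tumours of neighbours in this order overlapped between C4b and C1s1, C1ra and C3, C2 and C7, C7 and C6, and did not overlap for the other 4 pairs. In Fes KO the first 6 genes kept their order, from Serping1 at 304 ± 110.3 to C2 at 3.72 ± 2.09 CPM per kb. C7, placed above C6 and Cfb in Fes WT, was the last in Fes KO, at 0.251 ± 0.108 CPM per kb, beside C6 at 0.405 ± 0.403 and Cfb at 0.355 ± 0.527, and the ranges of these 3 overlapped.

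**Figure D3:**
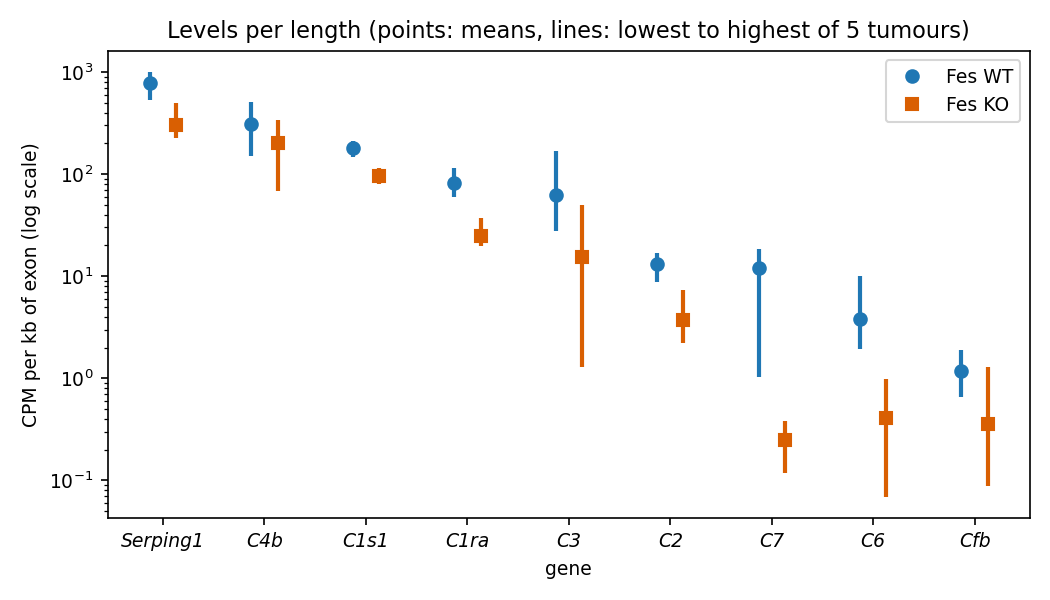
CPM per kilobase of exon on a log axis for the 9 genes in order of their Fes WT mean, with blue circles for Fes WT and orange squares for Fes KO means and lines from the lowest to the highest of 5 tumours. Serping1 is highest in both groups, and C7 drops from 11.9 to 0.251 CPM per kb.

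Tumours of 1 genotype also differed across the set. Fes KO 4 was the highest Fes KO tumour for 8 of the 9 genes, with C7 the exception, and Fes KO 3 the lowest for 5 (C1ra, C2, Cfb, C3 and C6). Among Fes WT tumours, the muscle-rich Fes WT 3 was lowest for 6 genes (C1ra, C1s1, C2, C3, C4b and Serping1). Fes WT 5 was highest for C1ra, C3 and Serping1 and lowest for C6 and C7. In that tumour C6 and C7 thus stood at the opposite end of the group from C1ra, C3 and Serping1.

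A further 51 complement genes, from a list that leaves out the 9, were read from the same fit, and 35 of them were tested. Of these, the log2 fold change was negative for 28 and positive for 7, and its median was -0.66. None passed over all genes in edgeR, where 0.175% of all genes passed in either direction. At an unadjusted p below 0.05 there were 15 of 35, against 9.62% of all tested genes. DESeq2 called 6 of the 37 it tested, all lower in Fes KO, against 1.19% of all genes called lower. Limma-voom with quality weights called 2 of 35, both lower, against 0.567% of all genes. Among the 6, named after their values were seen, were C1rb, C1s2, Cfi, Cr1l and Vtn, and among the 2 was the macrophage receptor gene Vsig4. Without Fes KO 4, edgeR called 2, with Vsig4 among them, and without Fes WT 5 it called Vtn. C1rb and C1s2 were left out of the edgeR test by its filter and were high in Fes WT 1 and Fes WT 5 alone. For Cfi and Vsig4, all 5 Fes WT tumours but only 1 Fes KO tumour were above the filter level. A difference was thus built into the testing of Cfi and Vsig4.

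Among recognition molecules, all 6 tested genes lay below 0. The C1q chain genes C1qa, C1qb and C1qc, which are macrophage products in most tissues, were at -0.77 (SE 0.31), -0.68 and -0.73. C1qa was at 204 to 449 CPM in Fes WT and at 118 to 296 CPM in Fes KO, and Fes KO 2 and Fes KO 4 lay within the Fes WT range. The lectin genes Mbl1 and Mbl2 had 0 counts in every tumour.

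Of the other proteases, 3 of 4 tested genes lay below 0. Cfd, the adipocyte-derived factor D, was highest in Fes KO 2 (168 CPM), next in Fes WT 3 (109 CPM), and between 0.588 and 11.8 CPM elsewhere. C1rl was at -0.43 (SE 0.34), and Cfi, the protease that inactivates C3b and C4b, at -3.81 (SE 1.12). Cfi ranged from 0.827 to 18.6 CPM in Fes WT and from 0 to 1.39 CPM in Fes KO, with an overlap between Fes WT 2 and Fes KO 1.

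Of the remaining components, none passed. The log2 fold change was -0.82 (SE 0.36) for Cfp, which encodes properdin, -1.22 (SE 0.51) for Hc and -2.45 (SE 0.83) for C4a. Hc, which encodes C5, had a median of 13.7 CPM in Fes WT and 7.31 CPM in Fes KO, and only Fes KO 2 reached the Fes WT range. For the last steps of the membrane attack complex, C8a and C8b had 0 counts in every tumour and C9 had at most 1 count per tumour, while C8g was at 2.38 to 3.44 CPM in both groups.

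Regulators were the most mixed list, with 7 of 11 tested genes below 0 and a median of -0.30. Thbd was at 0.45 (SE 0.20) and the membrane regulator Cd59a at -0.38 (SE 0.37). In Cr1l, the rodent membrane regulator Crry, the genotypes did not overlap, with 73.0 to 83.2 CPM in Fes WT against 57.6 to 72.1 CPM in Fes KO.

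Receptors had 8 of 10 tested genes below 0. The most abundant were Cd93 at 0.68 (SE 0.37), C1qbp at -0.06 (SE 0.13) and the integrin chain gene Itgb2 at -0.66 (SE 0.38), and none passed.

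**Figure D4:**
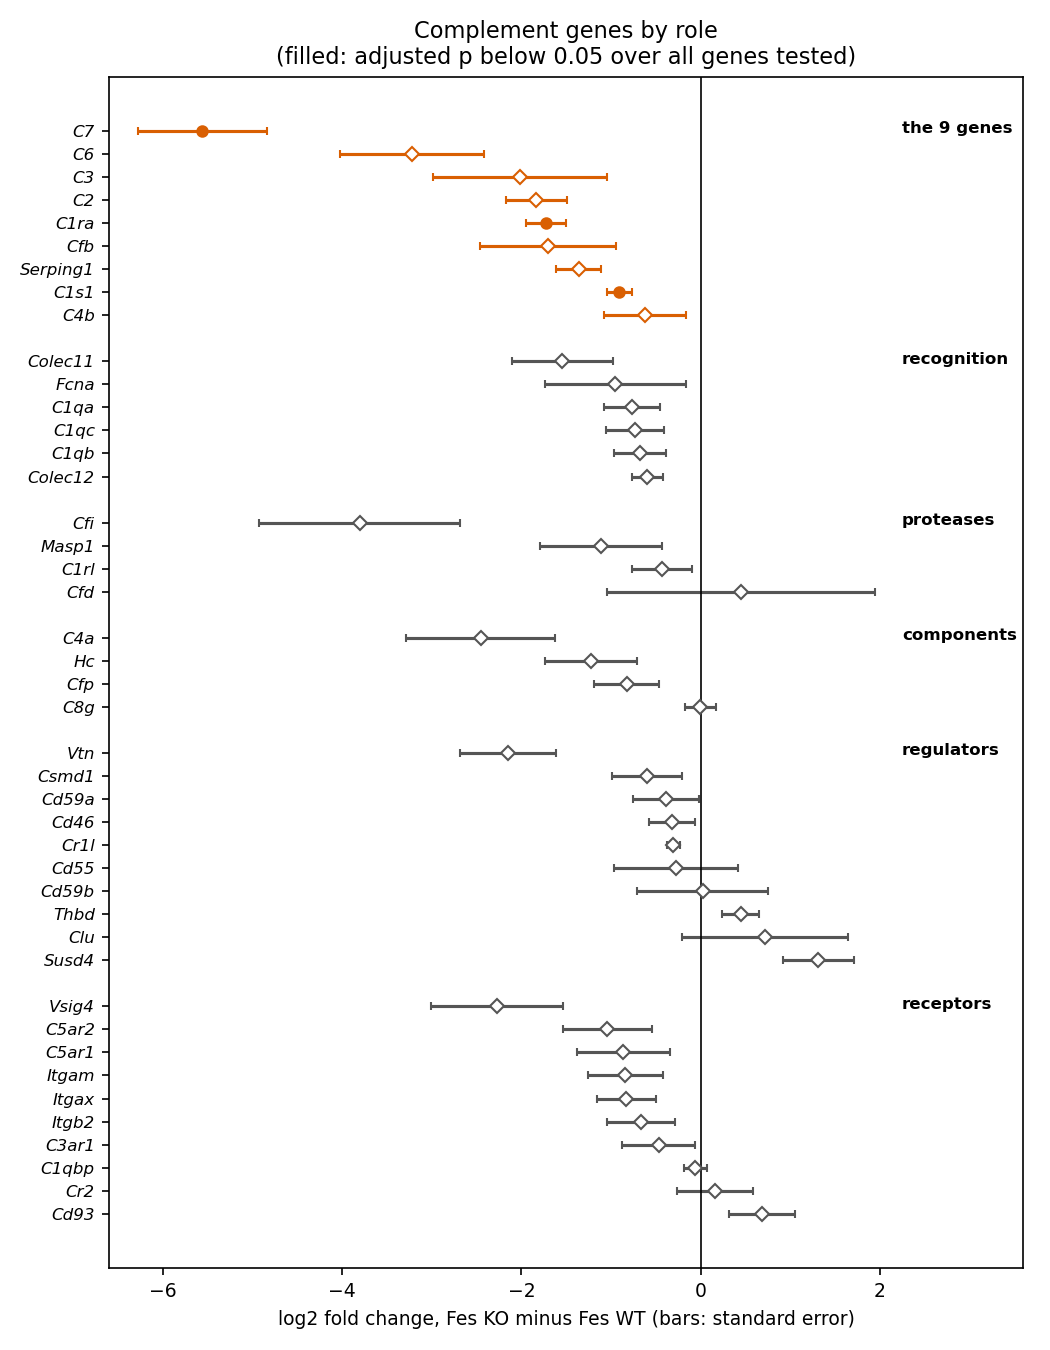
Log2 fold change (Fes KO minus Fes WT, bars are standard errors) of the 9 complement genes in orange and of 34 further tested complement genes in grey, grouped by role, with filled circles for genes past the threshold over all genes and open diamonds for the others. The 9 genes all lie left of 0, and of the others shown 27 of 34 do.

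Markers of cell types and of 2 responses were read beside these values. All 13 tested macrophage markers lay below 0 with a median of -0.82, and their mean log2 CPM was 5.69 to 6.64 in Fes WT and 4.94 to 6.18 in Fes KO, with Lyz2, Csf1r and Mrc1 the most abundant. Their summed level was 1176 to 2616 CPM in Fes WT and 768 to 1628 CPM in Fes KO. On this list Fes KO 2 (5.87) and Fes KO 4 (6.18) were inside the range of Fes WT. Fes KO 4 was also the highest Fes KO tumour in 8 of the 9 complement genes. Fes KO 2 came next after it in C1ra, C2, Cfb, C3 and C6, and was lowest of its group in Serping1, C1s1 and C4b. Its C1ra of 75.7 CPM lay below all Fes WT tumours. The part of macrophage content in the other differences was not tested.

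Of the interferon-gamma response genes, 19 of 19 lay below 0 with a median of -0.70, and the list was at 4.96 to 6.64 in Fes WT and 4.16 to 5.57 in Fes KO. Fes KO 3 and Fes KO 5 were the lowest, at 4.19 and 4.16, and they also had the lowest C3, C6 and Cfb. In Fes KO 1, Fes KO 2 and Fes KO 4 the list lay within the Fes WT range, at 5.21, 5.50 and 5.57, while C1ra and C7 in these tumours lay below all Fes WT tumours. Of the acute phase and NF-kB genes, 13 of 13 lay below 0 with a median of -1.20, at 4.24 to 6.21 in Fes WT and 2.98 to 4.93 in Fes KO. Its highest tumour was Fes WT 5, which also had the highest C3. None of the genes of the macrophage list and these 2 lists passed in edgeR, DESeq2 or limma-voom, and 6 of 13, 4 of 19 and 4 of 13 of them had an unadjusted p below 0.05 in edgeR, against 9.62% of all tested genes. The part of these responses in the differences was not tested.

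Of 14 tested fibroblast markers, 10 lay below 0 with a median of -0.36, and the list was at 8.73 to 9.72 in Fes WT and 8.54 to 9.44 in Fes KO, with Col3a1, Col1a2 and Col1a1 the most abundant. Their summed level was 33230.4 to 56408 CPM in Fes WT and 37645 to 63013 CPM in Fes KO. Fes KO 2, at 9.44, was exceeded by Fes WT 1 and Fes WT 3 alone. Its Serping1 was the lowest of all 10 tumours, and its C1ra, C2, Cfb, C3 and C6 came next after Fes KO 4 within Fes KO. The part of fibroblast content in the differences was not tested. Endothelial markers had 7 of 9 above 0, with a median of 0.18. All 7 tested T cell markers lay below 0 with a median of -1.12, and the list was at 0.24 to 1.95 in Fes WT and -1.23 to 1.38 in Fes KO.

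Melanocyte markers lay mostly on the other side of 0, with 6 of 7 above it and a median of 2.93. None passed in edgeR or limma-voom. In edgeR 3 of 7 had an unadjusted p below 0.05, against 9.62% of all tested genes. DESeq2 called Dct and Tyr higher in Fes KO, among 99 genes called higher of the 16864 it tested. Mlana and Tyrp1 were above the filter level in 4 Fes KO tumours each, but in only 1 and 2 Fes WT tumours. Their being tested thus rested mostly on Fes KO. Dct, a pigment enzyme gene, was at 6.78 to 21.4 CPM in Fes WT and at 35.4, 325, 47.0, 29.9 and 1.89 CPM in Fes KO 1 to 5. Fes KO 1 to 4 thus lay above Fes WT and Fes KO 5 below it, while C1ra and C7 were below all of Fes WT in all 5. The list was at 2.00 to 3.49 in Fes WT and 1.54 to 6.22 in Fes KO, with the highest value in Fes KO 2. Sox10, the most abundant, was at 0.22 (SE 0.25). The part of melanocyte or T cell content in the differences was not tested.

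Keratinocyte and muscle transcripts were high in Fes KO 2 and Fes WT 3. Without these 2 tumours all 9 complement genes remained below 0, with a median of -1.84. Leaving out the 3 tumours with Xist gave a median of -1.14. The tumours kept are among those in which the 9 genes were picked, so nothing is read from these signs. Liver markers were low, with Alb at no more than 0.197 CPM and Apoa1 at no more than 0.196 CPM, and Ahsg, at up to 7.08 CPM, the only one of 8 that passed the filter.

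**Figure D5:**
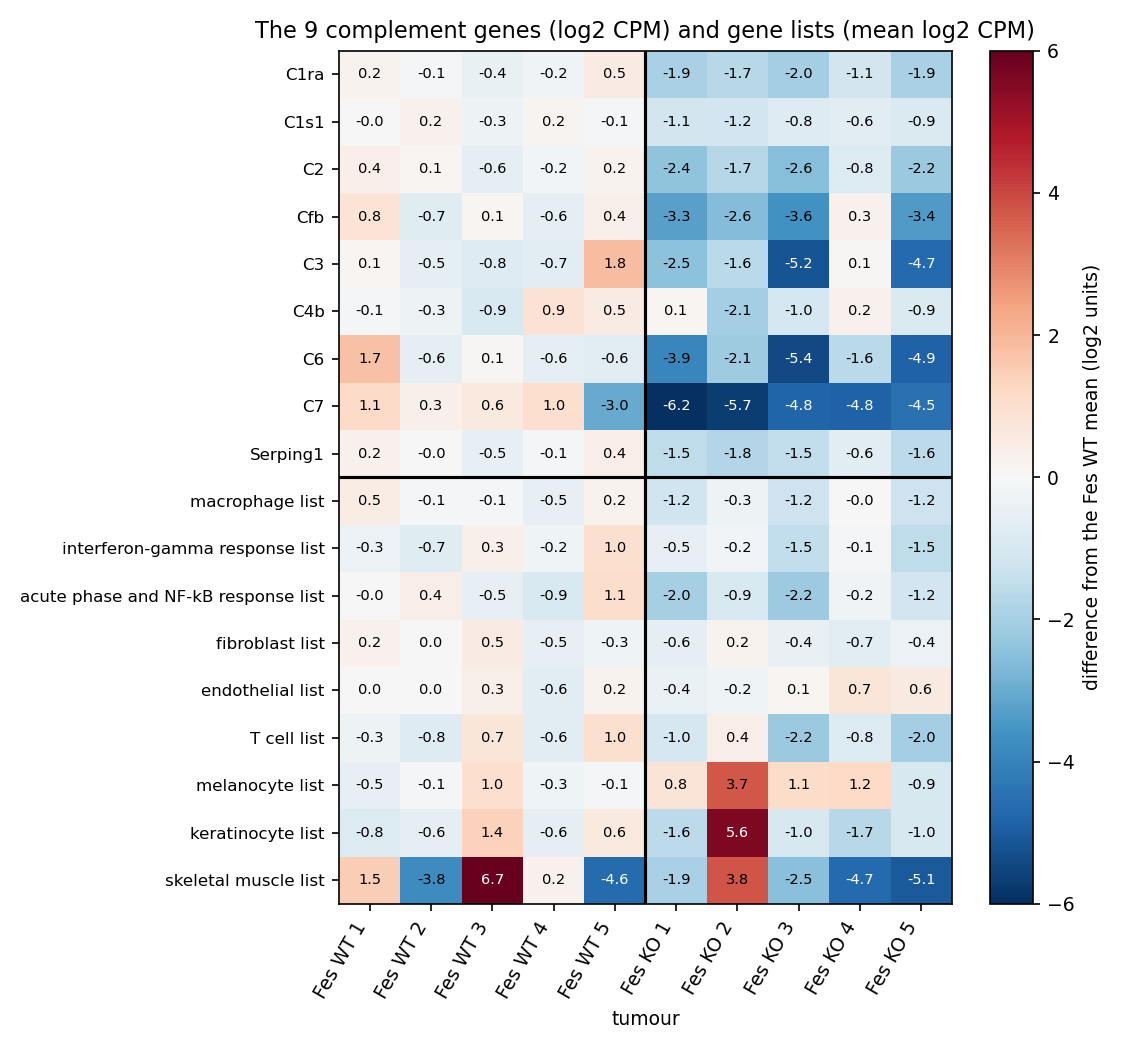
Difference of each tumour from the Fes WT mean in log2 units, for log2 CPM of the 9 complement genes above the line and for mean log2 CPM of 9 gene lists below it, with red for higher and blue for lower values and colours that end at 6 units. C7 is low in all 5 Fes KO tumours and in Fes WT 5, and the keratinocyte and muscle lists pick out Fes KO 2 and Fes WT 3.

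Genes with the most similar pattern over the 10 tumours were sought among 13268 protein-coding genes, those whose mean reached 1 CPM. Likeness was the root mean square difference of log2 CPM after each gene's mean was subtracted, so it includes the difference between the genotypes and is a description. For Serping1 the nearest gene outside the set was Fes itself, at 0.26, followed by the predicted gene Gm14295 at 0.30. For C1ra they were Batf2 at 0.35, Fes at 0.37 and Hebp1 at 0.38. Serping1 and C1ra were nearer to each other, at 0.24, than to any of these genes.

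For C2 the nearest were Snhg11 at 0.39 and Hebp1 at 0.40, and C1ra was nearer, at 0.27. C1s1 was nearest to Cbx7 at 0.17, Gm14326 and Bcl6, C4b to Pcdhb9 at 0.25, Grik2 and Fcgr2b, and Cfb to Tnfsf13b at 0.39, Angpt1 and Clec4n. C3, C6 and C7 varied most about their own means, and their distances were larger. C3 differed from Lgi2, S100a8 and Zbp1 by 0.69 to 0.74, C6 from Gzmb, Ccl8 and Adh1 by 0.73 to 0.80, and C7 from Gabra3, Bmp5 and Aldh1a1 by 1.05 to 1.34, against a root mean square of 2.07, 2.00 and 2.71 about their own means. The same figure was 0.92 for C1ra, 0.49 for C1s1 and 1.09 for C2, so the larger distances of C3, C6 and C7 go with a larger spread of these genes. For C1s1, C4b and Cfb the nearest of the 9 genes was further off than the genes named above, at 0.39, 0.67 and 0.63. For C3, C6 and C7 the nearest of the 9 was also further off than those genes, at 1.04, 0.90 and 1.65.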

How the data were processed

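Raw read counts per gene and log2 values were both deposited by the authors. Per the submitters' processing notes the tools were FastQC, STAR (2.51b) and Subread (1.4.6), with mm10 and GRCm38 as builds. No label states their settings or strand. The deposited log2 values equal log2 of count over size factor plus 1, to within 5.3e-11. The counts went into edgeR 4.0.16 (R 4.3.3) with TMM factors, filterByExpr by group and the 2-sided quasi-likelihood test, and Benjamini-Hochberg adjustment covered 14816 genes with a threshold of 0.05. A log2 fold change is the Fes KO level minus that of Fes WT, its standard error comes from the F statistic, and CPM uses TMM factors. List levels average log2 CPM (prior count 2) over tested genes. Positions and exon lengths come from GENCODE M21 (GRCm38), which holds 47224 of the 47643 identifiers. Paralog identity is the best blastn 2.17.0+ alignment of the longest transcripts. The fit was tested on simulated data.

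The 9 genes, the lists and the alternatives were chosen with earlier results of these data known. Named genes are the 9, their near-identical copies, Fes and Xist, of each further complement list those that pass and otherwise the 3 most abundant tested ones, up to 3 of each marker list, and for each of the 9 the 3 genes of most similar pattern. Cr1l, Krt5, Tyr, Mlana, Tyrp1, Saa3, Il6, Alb, Apoa1, Vtn, Vsig4 and the Mbl, C8 and C9 genes were named after their values were seen. Groups and replicate numbers come from the titles, and no tumour was left out. Alternatives were other factors and filters, DESeq2 1.42.0, limma 3.58.1, the replicate number as a block, and tumours left out. An allele shared by both groups and 1 further complement gene are not reported here by name, though the counts over the complement lists include that gene.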

Additional observations from a re-analysis of the deposited data

Results flagged for a closer look

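In each group of 5, the gap from the highest or lowest tumour to the next was divided by the range of all 5. A group was marked where this ratio passed 0.71. The 50 groups are the 9 complement genes, the copies C1rb, C1s2 and C4a, the 3 C1q genes and 10 gene lists in each genotype. For normally distributed values chance marks about 5% of such groups, and 7 were marked. The genes were read in CPM, which can be skewed, and the groups share tumours, so nothing is concluded from these 2 figures. Among the 9 genes, Fes KO 4 stood above the other Fes KO tumours in Cfb, at 3.66 CPM against 0.499 CPM in the next tumour, and in Serping1, at 1157 against 645 CPM. Fes WT 5 stood above the other Fes WT tumours in C3, at 870.1 against 267 CPM, and Fes WT 1 in C6, at 35.7 against 11.1 CPM. C1rb in Fes KO 4 was at 0.262 CPM against 0.0729 CPM, both from few counts. The keratinocyte list in Fes KO 2 was at a mean log2 CPM of 7.84 against 1.27, and the melanocyte list in Fes WT 3 at 3.49 against 2.37.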

How the results depend on the processing

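Each of the 9 genes kept a log2 fold change below 0 in all 20 alternatives. These reuse the tumours in which the genes were picked, so nothing is read from the stable sign. The number of all genes passing the threshold, 26 in edgeR, was 300 with DESeq2, 115 with limma-voom and 64 without the 3 Xist-expressing tumours, and 10 to 54 with 1 tumour left out. Of the 9 genes 3 passed, against 6 with DESeq2, 1 (C1ra) without Fes KO 2 and Fes WT 3, 1 (C7) without the 3 Xist-expressing tumours, and 0 to 6 with 1 tumour left out. Of the further complement genes 0 passed, against 6 with DESeq2, 2 with limma-voom, and 0 to 2 with 1 tumour left out. With the replicate number as a block, 4 genes of the whole table, 0 of the 9 and 0 of the further complement genes passed. Same-numbered tumours of the 2 groups did not deviate together (correlations of -0.38 to 0.17), so the numbers were not taken as pairs, and 0 of 5 Fes KO tumours correlated best with their own number. Why these counts moved was not tested. With the longest transcript in place of all exons, Serping1 in Fes WT was at 1025 and C2 at 19.4 CPM per kb, and the order of the genes was the same. Depth limits C6, C7 and Cfb in Fes KO most, where the lowest tumours had 4, 5 and 4 counts.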

Other observations

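Outside the complement lists, 2 genes of secreted proteins, Ahsg and Saa3, had uneven levels. Ahsg, which encodes the plasma protein fetuin-A, was at 0.838 to 7.08 CPM in Fes WT and at 0.0616 to 0.719 CPM in Fes KO. The groups did not overlap, a pattern seen in this direction in 1.11% of all tested genes. Ahsg did not pass over all genes in edgeR (log2 fold change -3.23, SE 0.69, adjusted p = 0.158) or limma-voom (adjusted p = 0.0608). It passed in DESeq2 (adjusted p = 0.000784), where 1.19% of genes were called lower. Of the tumours, 5 Fes WT but only 1 Fes KO were above the level of the low-count filter. A difference was thus built into the testing of Ahsg. Saa3, an acute phase gene that cells outside the liver express, was at 937 CPM in Fes WT 5, the tumour with the highest C3 and the lowest C7 of its group, while the remaining Fes WT tumours had 1.97 to 27.0 CPM and Fes KO 0.123 to 10.1 CPM. The cytokine gene Il6 was at 0.915 to 5.34 CPM in Fes WT and 0.0616 to 1.70 CPM in Fes KO, and these ranges overlapped.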
